A study of Mus musculus with 4 samples.

Results

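The liver of 21 month-old mice was compared with the liver of 3 month-old mice, gene by gene, in pooled RNA. The comparison covers every gene symbol that had at least 20 counts summed over the 2 pools. This rule left 5304 of the 33924 symbols in the files, of which 13467 had a count in either pool. The study looked for genes against which expression in the aging mouse liver can be normalised, and sequenced 1 liver pool each from mice aged 3, 9, 15 and 21 months. Each pool combined 1 μg of total RNA from each of 24 male C57BL/6Rj mice (strain C57BL6 in the labels), with 4 mice at each of 6 times of day. The mice were kept with 12 h of light and 12 h of darkness and free access to food, and neither group carried an allele or received a treatment that the sources name. With 1 pool a side, differences among the 24 mice are averaged out and cannot be seen, and the age of a pool cannot be told apart from any other property of that pool.

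The reads come from the capped 5'-ends of transcripts. RNA with a free 5'-phosphate was digested, which left messenger RNA and other capped RNA, so that a count does not grow with the length of the transcript as it would in sequencing of whole transcripts. As background, the liver is made up mostly of hepatocytes, which secrete plasma proteins and handle nutrients, bile acids and drugs. Kupffer cells, the resident macrophages, and sinusoidal endothelial cells line its blood vessels, and stellate cells lay down matrix. Old livers are known for infiltrating lymphocytes, low-grade inflammation and a reduced capacity for drug metabolism.

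The 3 month library held 955934 counts on genes and the 21 month library 735962, and the 9 and 15 month libraries 958586 and 525772. Between 6.67% and 8.42% of the records in a library were counts on genes, whereas 72.2% to 76.7% belonged to reads without a unique alignment. Levels are given as cpm, counts per 1000000 on library sizes scaled by TMM, a trimmed mean of the ratios between libraries, and 3 counts correspond to 3.14 cpm at 3 months and 4.03 cpm at 21 months. Each ratio is the scaled 21 month count over the 3 month count, with an exact 95% Clopper-Pearson interval, which covers counting error only. A gene was called higher or lower when the ratio was at least 2 or at most 0.5 and the interval left out 1. Such a call compares 2 libraries and is not a test of age. Where a pool had 0 counts, the fold is given against 3 counts and written as at least this value, and the limit of the exact interval, which is nearer to 1, is given beside it.

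Of the 5304 genes, 371 (6.99%) were called higher and 428 (8.07%) were called lower in the 21 month pool, and 4505 were not called. The median log2 ratio was -0.02. From the 5% to the 95% point the ratios ran from 0.38 to 2.46. Scaling by Gapdh alone, which had 1363 and 855 counts, raised every log2 ratio by 0.31 and changed the split to 707 higher and 205 lower genes, whereas DESeq2 size factors gave 352 and 445 and library totals 380 and 391. Of the 1022 measured genes on any of the gene lists below, without those chosen after seeing the values, 61 were higher and 66 lower, or 12.4%, against 15.1% of all genes. Every direction below is relative to the TMM scale, and on the Gapdh scale a log2 median between -0.31 and 0 turns positive.

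Most calls were made on few counts. Among the 2660 genes with 20 to 49 summed counts 21.0% were called, and among the 1845 genes with 50 to 199 counts 11.9%. The 799 genes with at least 200 counts had 6 calls higher and 15 lower, or 2.63%, and their ratios ran from 0.592 at the 5% point to 1.48 at the 95% point. The 10 most counted genes lay within 2-fold, from a ratio of 0.676 for Ahsg to 1.67 for the elongation factor gene Eef1a1 (15969 and 20819 counts, from 1.64 to 1.71). Albumin (Alb) had 52169 counts at 3 months and 47962 at 21 months, a ratio of 1.18 (from 1.16 to 1.19), and Ahsg, encoding the plasma protein fetuin-A, had 31088 and 16391 counts, a ratio of 0.676 (from 0.663 to 0.689). The desaturase gene Scd1 had a ratio of 0.865, Serpina1e 0.723, the thyroid hormone carrier gene Ttr 0.768, and the small RNAs Snord13, U1 and U3 had 1.12, 1.32 and 1.26. AC154124.1, annotated as a miRNA locus and also among the 10 most counted, had 1.02.

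**Figure D1:**
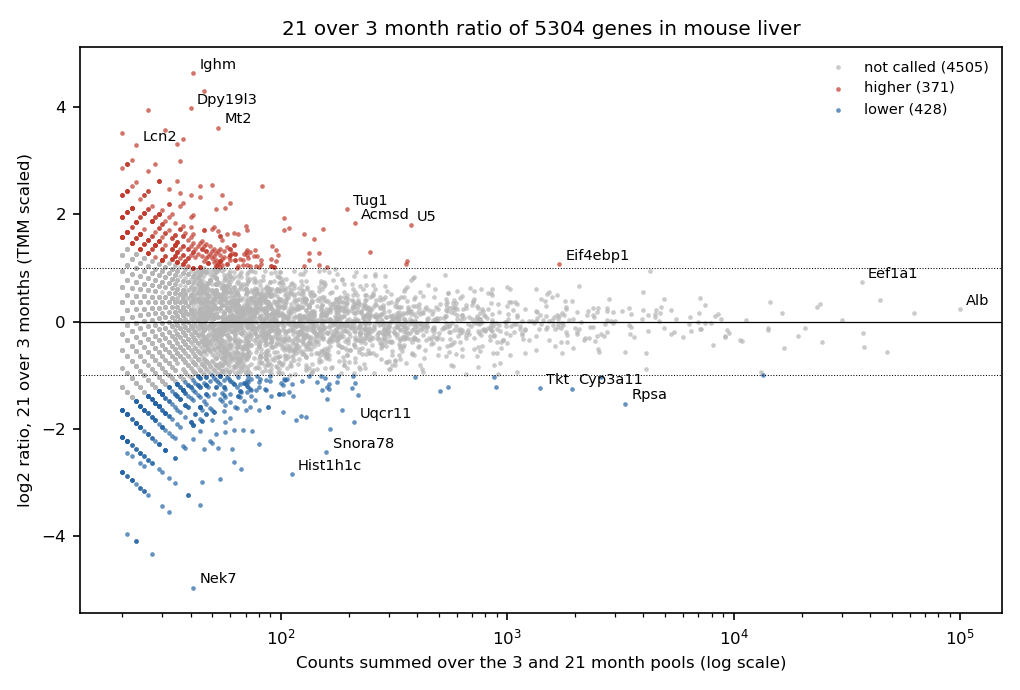
Log2 ratio of the 21 over the 3 month pool against the counts summed over both pools (log scale) for the 5304 genes, with red points for the 371 genes called higher, blue for the 428 called lower and grey for the 4505 others; dotted lines mark 2-fold. The spread narrows to the right, and among the genes with at least 200 counts 21 of 799 were called.

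Among the deeply counted genes, the 6 that were higher at 21 months were Mt1, Eif4ebp1, Cth, Rpl36, U5 and Acmsd. Acmsd, encoding the decarboxylase that draws tryptophan breakdown away from NAD synthesis, had 56, 89, 24 and 157 counts at 3, 9, 15 and 21 months. Its ratio was 3.60 (from 2.63 to 4.97), and the 21 month level of 211 cpm was above those of the other 3 pools. Eif4ebp1 encodes a repressor of the cap-binding factor eIF4E. Its counts of 641, 1113, 973 and 1054 gave a ratio of 2.11 (from 1.91 to 2.33), with the 3 month pool below the 3 older pools. Cth, whose product makes cysteine from cystathionine, had 133, 240, 85 and 227 counts and a ratio of 2.19 (from 1.76 to 2.73), but the 9 month pool was nearly as high as the 21 month pool.

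The 15 deeply counted genes that were lower at 21 months were led by Rpsa and Uqcr11. Rpsa, the gene of a small-subunit ribosomal protein that also acts as a laminin receptor, lies on chromosome 9 from 120036884 to 120041487 (plus strand, NCBIM37) and overlaps small nucleolar RNA genes. It had 2620, 1049, 591 and 708 counts, or 2743, 1154, 1078 and 951 cpm, and a ratio of 0.347 (from 0.319 to 0.377). The 3 older pools lay close together and the 3 month pool stood above them. A similar step between 3 and 9 months was seen for Tkt, the transketolase of the pentose phosphate pathway, which had 1048, 429, 303 and 347 counts and a ratio of 0.425 (from 0.375 to 0.48, not called on the Gapdh scale). Uqcr11, a small subunit of respiratory complex III, had 173, 96, 66 and 37 counts and a ratio of 0.274 (from 0.187 to 0.393). Slc25a3, the phosphate carrier of mitochondria, had a ratio of 0.405 (386 and 122 counts), Grina 0.422 (155 and 51 counts), Creg1 0.496 (150 and 58 counts) and D17Wsu92e 0.389 (168 and 51 counts). The others were Cyp3a11, Cyp2c29, Cfb, Mup11 and Uqcrc2, described with their groups, and 3 loci not annotated as protein-coding. These were the pseudogenes AY036118 with 9725 and 3784 counts and Gm12563 with 636 and 243, and AC099934.1 with 284 and 108.

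The metallothionein genes Mt1 and Mt2, whose proteins bind zinc and copper, were both higher at 21 months. Mt2 had 5, 279, 13 and 48 counts at 3, 9, 15 and 21 months, and its 21 over 3 month ratio was 12.3 (from 4.93 to 39.6). Mt1 had 135, 1335, 117 and 221 counts and a ratio of 2.10 (from 1.69 to 2.62). In both genes the highest pool was that of 9 months, so that the 21 month value lay inside the range of the other pools. The genes are neighbours on the plus strand of chromosome 8, with Mt2 from 96696518 to 96697467 and Mt1 from 96702989 to 96704225, and are known to be induced by metals and glucocorticoids.

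Because both genes were called in the same direction, the 200 bases before the most upstream annotated start of each (NCBIM37, GENCODE M1) are shown, with matches in capitals to the core of the metal response element, TGCACNC or TGCGCNC on either strand:
Mt2, chr8:96696318-96696517, plus strand: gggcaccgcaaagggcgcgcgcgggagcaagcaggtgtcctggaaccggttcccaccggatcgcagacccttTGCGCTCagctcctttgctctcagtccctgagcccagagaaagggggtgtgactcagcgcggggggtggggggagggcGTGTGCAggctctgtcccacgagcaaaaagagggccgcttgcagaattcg
Mt1, chr8:96702789-96702988, plus strand: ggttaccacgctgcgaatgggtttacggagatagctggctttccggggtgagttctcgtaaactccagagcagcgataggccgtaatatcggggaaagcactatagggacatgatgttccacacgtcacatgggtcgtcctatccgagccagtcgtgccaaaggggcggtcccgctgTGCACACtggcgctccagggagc
The window of Mt2 held 2 matches and that of Mt1 held 1. Of 45982 windows of 200 bases before the starts of coding transcripts, 21.6% held at least 1 match and 5.13% at least 2. A match describes these letters and is not a bound site. A further start of Mt1 is annotated downstream, and the window before that start is not shown. The numbers of matches therefore do not rank the promoters of Mt1 and Mt2.

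The acute phase proteins, plasma proteins that the liver makes in inflammation, were mostly not called. Of 24 measured genes, 1 was called higher and 1 lower, against 6.99% and 8.07% of all genes, with a median log2 ratio of 0.04. Lcn2, encoding the iron-scavenging protein lipocalin 2, had 0, 9, 32 and 23 counts, so that the 21 month level was at least 9.83-fold higher than 3 counts at 3 months would give (lower interval limit 7.37), and the 15 month pool was higher still. Saa3 went the other way with 18, 0, 1 and 2 counts and a ratio of 0.142 (from 0.016 to 0.595). The abundant members stayed near 1, with ratios of 1.12 for haptoglobin (Hp, 2541 and 2215 counts), 0.981 for hemopexin (Hpx, 4491 and 3437 counts) and 1.04 for Crp. The coagulation genes had no call among 26, and fibrinogen genes Fga and Fgb had ratios of 0.902 and 0.92.

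Complement genes gave 2 calls higher and 1 lower among 27, against 6.99% and 8.07% of all genes. Cfb, complement factor B of the alternative pathway, had 410, 241, 120 and 138 counts and a ratio of 0.432 (from 0.353 to 0.525), with the 3 month pool the highest of all 4. This call was lost on the Gapdh scale. Properdin (Cfp), which stabilises the enzyme formed with factor B, had 15 and 31 counts and a ratio of 2.65 (from 1.39 to 5.28). C4a had 4 and 24 counts and a ratio of 7.69 (from 2.64 to 30.5), while its near-identical copy C4b had 565 and 338 counts and a ratio of 0.767, so that the division of reads between both is uncertain. The central component C3 was not called, with 7230 and 7238 counts and a ratio of 1.28 (from 1.24 to 1.33).

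Of the 3 measured genes of the list of immunoglobulins and plasma cells, 1 was called higher and none lower, against 6.99% and 8.07% of all genes. The median log2 ratio was 0.40 and the ratio of the list's summed counts 1.34 (from 1.13 to 1.596). The plasma cell genes Sdc1 (130 and 134 counts, 1.32) and Xbp1 (136 and 84 counts, 0.792), which hepatocytes also express, were not called. Ighm, the constant region of the IgM heavy chain (chromosome 12, 114659078 to 114660941, minus strand), had 2, 8, 19 and 39 counts, a ratio of 25.01 (from 6.47 to 214), and each older pool was above the one before it. Igkv3-2, outside the list, a variable segment of the kappa light chain (chromosome 6, 70648462 to 70649061, plus strand), had 0, 15, 15 and 46 counts and was at least 19.7-fold higher (lower interval limit 15.4). Another segment outside the list, Igkv5-48, named after its value had been seen, had 11 and 23 counts and a ratio of 2.68 (from 1.26 to 6.09). The kappa constant region Igkc with 0, 13, 1 and 6 counts and the joining chain Igj with 0, 3, 3 and 7 counts stayed under the minimum of 20. Variable segments resemble each other, so that their reads can be lost or shifted. In bulk RNA, a larger number of B cells or plasma cells and more antibody RNA per cell cannot be told apart.

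Other lymphocyte markers were barely measured. Of 24 B and T cell markers 2 passed the minimum and 7 were at 0 in both pools. Coro1a, an actin regulator of white blood cells, had 10, 8, 15 and 26 counts and a ratio of 3.33 (from 1.56 to 7.75), and Cd74, the invariant chain of class II molecules, had 122 and 134 counts and a ratio of 1.41. The summed level of the whole list was 164, 206, 153 and 274 cpm at 3, 9, 15 and 21 months. Cd74, also on the class II list, held most of its 157 and 204 counts at 3 and 21 months. None of the 4 measured MHC class II genes was called, against 6.99% called higher and 8.07% called lower among all genes. The class II genes had a median log2 ratio of 0.57 and ratios from 0.742 for H2-Ab1 to 1.61 for H2-Aa. The 12 MHC class I genes had no call and a median of -0.02, and B2m had a ratio of 1.02. Of the neutrophil and monocyte markers 2 of 19 were measured, Plac8 with a ratio of 1.71 (from 0.937 to 3.17) and Lcn2, while 10 were at 0 in both pools, and the summed level was 30.4, 78.1, 111 and 90.0 cpm. Lcn2, also on the acute phase list, made up 0, 9.90, 58.4 and 30.9 cpm of this sum.

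Of the 24 measured Kupffer cell and macrophage markers, 2 were called higher and none lower, against 6.99% and 8.07% of all genes. Among the 24, 19 had a ratio above 1, and the median log2 ratio was 0.38. Marco, a scavenger receptor, had 10, 18, 20 and 30 counts and a ratio of 3.85 (from 1.83 to 8.82). Timd4, a receptor for dying cells carried by resident macrophages, had 16, 31, 34 and 25 counts and a ratio just above 2 (from 1.03 to 4.02), a call that was lost with DESeq2 size factors. The most specific Kupffer cell gene, Clec4f, had 131 and 103 counts and a ratio of 1.01 (from 0.771 to 1.32), and Cd5l had 1.35 (from 1.15 to 1.59). The list summed to 1380 cpm at 3 months and 1778 cpm at 21 months, a ratio of 1.29 (from 1.19 to 1.39).

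Interferon response genes moved both ways, with 2 calls higher and 3 lower among 19, against 6.99% and 8.07% of all genes. Mx2, an antiviral GTPase, had 2, 9, 7 and 18 counts and a ratio of 11.5 (from 2.76 to 103), and Irf9, the DNA-binding part of the interferon-activated complex ISGF3, had 7 and 18 counts and a ratio of 3.30 (from 1.31 to 9.34). Oasl2 had 26 and 3 counts (0.148, from 0.0287 to 0.483), Ifi44 18 and 3 (0.214, from 0.0403 to 0.732) and Parp14 49 and 11 (0.288, from 0.135 to 0.561). In these 3 genes the 3 month pool was the highest of the 4.

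Most matrix and stellate cell genes had a ratio above 1. Of 18 measured genes 3 were called higher and none lower (8 and 0 on the Gapdh scale), against 6.99% and 8.07% of all genes. Among the 18, 14 had a ratio above 1, and the median log2 ratio was 0.64. Timp3, an inhibitor of matrix-degrading proteases, had 16, 32, 7 and 38 counts and a ratio of 3.05 (from 1.66 to 5.85). The fibril-associated collagen Col14a1 had 24, 66, 36 and 47 counts and a ratio of 2.51 (from 1.51 to 4.29), and the basement membrane collagen Col4a1 had 13, 17, 14 and 22 counts and a ratio of 2.17 (from 1.05 to 4.69). Several better counted members lay short of 2-fold, among them vimentin (Vim) with 107 and 155 counts and a ratio of 1.86 (from 1.44 to 2.40) and Reln with 87 and 123 counts and 1.81 (from 1.37 to 2.41). The fibrillar collagen gene Col1a2 had 25 and 31 counts and a ratio of 1.59 (from 0.909 to 2.81). Fibronectin (Fn1), also made by hepatocytes, had 1.06. The summed level of the list was 3453 and 4095 cpm, a ratio of 1.19 (from 1.13 to 1.25).

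Sinusoidal endothelial markers had 1 call higher and 3 lower among 21 (1 and 1 on the Gapdh scale), against 6.99% and 8.07% of all genes. Their median log2 ratio was -0.11. The endothelial cadherin Cdh5 had 51, 28, 15 and 13 counts and a ratio of 0.327 (from 0.163 to 0.61). Eltd1 and Egfl7, both active in vessel growth, had ratios of 0.445 (49 and 17 counts) and 0.412 (28 and 9 counts), which were not called on the Gapdh scale. Lyve1, a hyaluronan receptor, had 20, 49, 14 and 32 counts and a ratio of 2.05 (from 1.14 to 3.79). The markers thus did not move as 1 group, and Clec4g had a ratio of 1.02 and Stab2 0.552 (from 0.40 to 0.755). Neither of the 2 measured cholangiocyte markers was called, with Sox9 at 1.92 (from 0.808 to 4.79), nor were the 5 red cell genes, with Hbb-b1 at 0.915 and Hbb-b2 at 0.724.

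The tissue label was borne out by the defining genes of hepatocytes, of which 19 were measured, none was called, and the median log2 ratio was 0.01. Their summed level was 163515 cpm at 3 months and 159171 cpm at 21 months. Genes of the exocrine pancreas were also present. This list was chosen after their values had been seen, because 2210010C04Rik was among the leading genes, which favours calls among its members. Among all genes 6.99% were called higher and 8.07% lower. Of 24 genes 5 were measured and 4 called higher, namely Ctrb1 (26, 6, 0 and 77 counts, ratio 3.80), Cela3b (13, 9, 1 and 47 counts, ratio 4.64), 2210010C04Rik (4, 5, 0 and 33 counts, ratio 10.6) and Cela1 (14, 8, 9 and 28 counts, ratio 2.56). The whole list summed to 86, 42, 10 and 257 counts, and 7 genes were at 0 in both pools, among them Prss1 and Ctrc. The part of tissue from outside the liver in the other calls was not tested.

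**Figure D2:**
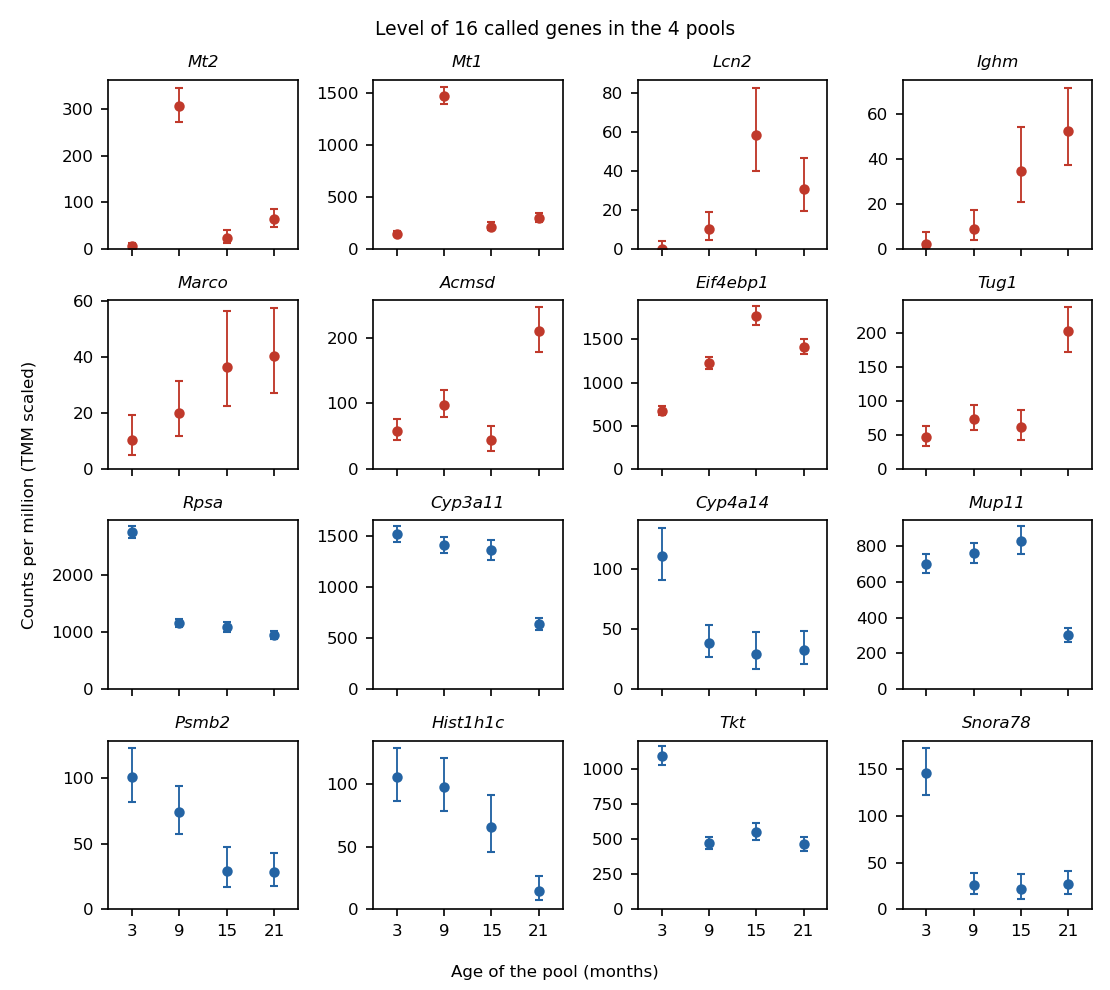
Level of 16 called genes in the 4 pools, in cpm scaled by TMM, against the age of the pool in months, with exact 95% counting intervals (1 pool per age). Red genes were higher and blue genes lower at 21 than at 3 months; Ighm and Marco go up with each older pool, whereas Mt1 and Mt2 are highest at 9 months and Rpsa, Tkt and Snora78 differ between 3 months and all older pools.

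The major urinary proteins, pheromone carriers that male liver secretes under growth hormone and androgens, were called lower in 4 of 10 measured genes, against 8.07% of all genes, with a median log2 ratio of -0.32. Mup11 (chromosome 4, 60671338 to 60675283, minus strand) had 668, 689, 455 and 225 counts and a ratio of 0.432 (from 0.37 to 0.503), and the 21 month pool stood alone below the other 3. Mup17 had 138, 105, 67 and 27 counts and a ratio of 0.251 (from 0.16 to 0.381). Mup16 and Mup9 had ratios of 0.214 (18 and 3 counts, from 0.0403 to 0.732) and 0.444 (26 and 9 counts). The strongly counted Mup3 (5692 and 3809 counts) and Mup7 (2410 and 2514 counts) had ratios of 0.858 and 1.34, so that the family did not move as a whole. On the Gapdh scale Mup11 and Mup9 were not called. The genes are near-identical copies, and reads that fit several of them are outside the counts.

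Cytochrome P450 genes of families 1 to 4, which oxidise drugs, steroids and fatty acids, gave 2 calls higher and 3 lower among 31. Over all genes the shares were 6.99% and 8.07%. Cyp3a11, a main drug-metabolising enzyme of mouse liver, had 1451, 1281, 746 and 476 counts, or 1519, 1409, 1361 and 639 cpm, and a ratio of 0.421 (from 0.379 to 0.467). Only the 21 month pool was low. Cyp2c29 had 1882, 1523, 649 and 718 counts and a ratio of 0.489 (from 0.448 to 0.533). The calls of both were lost on the Gapdh scale. Cyp4a14, a target of the fatty acid sensor PPARα, had 106, 35, 16 and 24 counts and a ratio of 0.290 (from 0.178 to 0.456), with the drop between 3 and 9 months. Cyp2c37 went up with 43, 77, 65 and 98 counts and a ratio of 2.92 (from 2.02 to 4.29), as did Cyp2u1 with 2.46 (from 1.47 to 4.21). Cyp2e1 and Cyp1a2, both strongly counted, had ratios of 1.20 and 0.848.

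Phase II genes, whose products attach polar groups to drugs and toxins, had 2 calls higher and 3 lower among 38. Over all genes the shares were 6.99% and 8.07%. Ugt2b38 (26 and 5 counts, ratio 0.247), Gstm4 (0.449) and Ugt3a1 (0.46, not called on the Gapdh scale) were lower, and the sulfotransferase gene Sult1d1 was higher with 49 and 78 counts (2.04, from 1.41 to 2.98). Gstp2 had 7 and 22 counts and a ratio of 4.03, whereas its near-identical neighbour Gstp1 had 9437 and 3848 counts and a ratio of 0.523 (from 0.504 to 0.543), just short of the 2-fold limit. Genes typical of hepatocytes around the central vein had 1 call higher and 2 lower among 21, all of them the P450 genes Cyp2c37, Cyp3a11 and Cyp2c29. Among 26 periportal genes the cadherin gene Cdh1 alone was called, at 0.42 (55 and 18 counts, not called on the Gapdh scale).

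In bile acid metabolism 1 gene was called higher and 1 lower of 24, no larger shares than the 6.99% and 8.07% of all genes. Fgfr4 (chromosome 13, 55254001 to 55270120, plus strand), the hepatocyte receptor for the gut hormone FGF15 that restrains bile acid synthesis, had 3, 10, 14 and 28 counts and a ratio of 11.97 (from 3.70 to 61.5). Nr0b2, encoding the repressor SHP, had 25, 20, 12 and 4 counts and a ratio of 0.205 (from 0.0519 to 0.594). Cyp7a1, the rate-limiting enzyme of bile acid synthesis, was not called, with 60, 70, 39 and 54 counts and a ratio of 1.15 (from 0.784 to 1.70). Cyp8b1, which sets the share of cholic acid, had 0.948 (from 0.771 to 1.16).

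Genes of fatty acid oxidation and ketone body formation were called lower in 5 and higher in 1 of 42, against 8.07% and 6.99% of all genes, with a median log2 ratio of -0.16. Acadvl, the dehydrogenase for very long chains, had 82, 56, 37 and 20 counts and a ratio of 0.313 (from 0.182 to 0.515). The male-biased hydroxylases Cyp4a12a and Cyp4a12b had 149 and 37 counts (0.318) and 48 and 9 counts (0.24), and as near-identical copies are not independent of each other. Acot4 with 19 and 4 counts and Cyp4a14 made up the 5, and Acad10 was the gene called higher (8 and 29 counts, 4.65). Fatty acid synthesis gave 1 call, Tkt, among 27, and Fasn had a ratio of 1.30. There was no call among 21 genes of cholesterol synthesis and LDL uptake or among 14 apolipoprotein genes, where Apob had 0.83 and Apoe 0.926.

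Genes of lipid droplets and lipid uptake were called higher in 3 of 15, against 6.99% of all genes, whereas the summed counts of the list had a ratio of 0.828 (from 0.787 to 0.872), with Fabp1 (2175 and 1142 counts, 0.673) the most counted member. The fatty acid transporter Cd36 had 34, 50, 41 and 63 counts and a ratio of 2.38 (from 1.54 to 3.72), Plin3, a coat protein of droplets, 20 and 35 counts (2.24), and Fitm1 5 and 20 counts (5.13). In glucose metabolism 2 genes were called higher and 2 lower among 31, against 6.99% and 8.07% of all genes. The kinase gene Pfkfb3 had a ratio of 3.46 (10 and 27 counts) and its liver form Pfkfb1 0.226 (17 and 3 counts, from 0.0425 to 0.782). Foxo1, which drives glucose production in fasting, had 18 and 34 counts and a ratio of 2.42 (from 1.33 to 4.56). Igfbp1, a fasting-induced binding protein for IGF, had 130, 129, 69 and 50 counts and a ratio of 0.493 (from 0.349 to 0.688), a call lost on the Gapdh scale and with the 7 final marker genes as the scale. The gluconeogenic gene Pck1 had 1.03 (from 0.93 to 1.14).

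The urea cycle had no call among 12 genes, with a ratio of 1.16 for both Cps1 and Ass1. Cth was the call among 22 genes of the methionine cycle and one-carbon metabolism, and Acmsd the call among 37 genes of amino acid breakdown. Ribosomal protein genes had 2 calls higher and 4 lower among 49 (4 and 4 on the Gapdh scale), against 6.99% and 8.07% of all genes. Beside Rpsa, Rps29 (46 and 7 counts, 0.195), Rpl6 (22 and 3 counts, 0.175, from 0.0335 to 0.582) and Rpl27a (36 and 9 counts, 0.321) were lower. Rpl36 had 85, 56, 38 and 163 counts and a ratio of 2.46 (from 1.88 to 3.24) and Rpl28 had 16 and 33 counts and a ratio of 2.65. These genes have many processed copies in the genome. Of 43 translation factor genes Eif4ebp1, Eif6 (20 and 34 counts, 2.18) and Eif1b (13 and 22 counts, 2.17) were called higher. The elongation factor gene Eef1a1 had 15969, 14351, 8990 and 20819 counts and a ratio of 1.67 (from 1.64 to 1.71), with the 21 month pool above the other 3, but short of 2-fold.

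Respiratory chain genes of the nucleus were called higher in 5 and lower in 5 of 72 (7 and 3 on the Gapdh scale), shares close to the 6.99% and 8.07% of all genes, with a median log2 ratio of -0.05. On the higher side Ndufs7, a core subunit of complex I, had 43, 57, 78 and 111 counts and a ratio of 3.31 (from 2.31 to 4.82), and the complex I subunit genes Ndufb11, Ndufb5 and Ndufa1 and the assembly factor gene Ndufaf3 had ratios between 2.37 and 4.58 on 7 to 13 counts at 3 months. The lower genes were Uqcr11, Uqcrc2, the complex IV subunit genes Cox5a and Cox5b, and Cox4nb, which lies beside a cytochrome oxidase gene and does not encode a subunit. Uqcrc2, a core subunit of complex III, had 158, 127, 46 and 56 counts and a ratio of 0.455 (from 0.329 to 0.62). Cox5a had 114 and 43 counts (0.484) and Cox5b 87 and 26 counts (0.383). Cox4nb had 21, 22, 3 and 0 counts and was at least 5.46-fold lower (upper limit of the ratio 0.246). The mitochondrial genome's own genes were at 0 counts in all pools.

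Proteasome genes, which build the protease that degrades ubiquitin-marked proteins, were called lower in 6 of 36 and higher in none, against 8.07% lower among all genes. Psmb2 had 96, 67, 16 and 21 counts and a ratio of 0.281 (from 0.166 to 0.453), and Psmb4 had 125, 55, 55 and 36 counts and a ratio of 0.369 (from 0.248 to 0.539). Psmd8 (0.393), Psmb6 (0.418), Psmb5 (0.335) and Psmc5 (0.366) had 23 to 75 counts at 3 months. The group's median log2 ratio was -0.18, and on the Gapdh scale 3 genes were called higher and 3 lower. Antioxidant genes were lower in 3 of 29, against 8.07% of all genes, with a median of -0.28. Prdx4 had 44 and 8 counts (0.233), Gclc, the rate-limiting enzyme of glutathione synthesis, 120 and 40 (0.427) and Gpx4, which removes lipid peroxides, 44 and 16 (0.466). Of these, Gclc and Gpx4 were not called on the Gapdh scale. Gpx1 had 2892 and 1218 counts and a ratio of 0.54 (from 0.505 to 0.578). Among 29 heat shock and unfolded protein genes the co-chaperone gene Dnaja1, which overlaps Smu1 on the other strand, was called higher (5, 15, 8 and 31 counts, 7.95, from 3.07 to 26.2). The share called higher among all genes was 6.99%, and the median of the heat shock list was -0.21.

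Histone genes were called lower in 6 and higher in 3 of 28 (3 and 4 on the Gapdh scale), against 8.07% and 6.99% of all genes. Their median log2 ratio was -0.22. The linker histone genes Hist1h1c (chromosome 13, 23830676 to 23832235, plus strand) and Hist1h1a had 101, 89, 36 and 11 counts and 41, 25, 10 and 4 counts. Their ratios were 0.140 (from 0.0676 to 0.261) and 0.125 (from 0.0326 to 0.345), and both went down with each older pool. Hist2h2be, Hist1h3e, Hist1h4c and Hist1h2bk had ratios of 0.347, 0.451, 0.466 and 0.49. Hist1h2bf (3 and 18 counts, 7.69, from 2.25 to 40.8), Hist2h4 (17 and 38 counts, 2.87) and H3f3b, a replacement variant outside the clusters (9 and 22 counts, 3.13), were higher. Clustered histone genes are near-identical in parts, and their RNA lacks a long poly(A) tail and is made mostly in dividing cells. Of 11 measured genes for p53, senescence and the cell cycle, the kinase inhibitor gene Cdkn2c was called, lower, with 18 and 2 counts (0.142, from 0.016 to 0.595), and the p53 target Cdkn1a had 17 and 19 counts and a ratio of 1.43 (from 0.705 to 2.94).

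Small nucleolar RNAs were called in both directions, 8 of 78 higher and 8 lower (10 and 3 on the Gapdh scale), against 6.99% and 8.07% of all genes. Most of these RNAs guide the modification of ribosomal RNA and are cut from introns of host genes. It was not tested how fully RNA with a free 5'-phosphate was removed from each pool. Nor was it tested whether the counted reads came from capped RNA, so the ratios need not follow the levels of these RNAs. Snord61 was the leading higher one with 2, 3, 3 and 24 counts and a ratio of 15.4 (from 3.82 to 134), and only the 21 month pool was high. Snora78 was the leading lower one with 139, 24, 12 and 20 counts and a ratio of 0.185 (from 0.109 to 0.296), and only the 3 month pool was high. Both sequences are shown because they had the calls farthest from 1 in this class, as read from NCBIM37, with the C box TGATGA and the D box CTGA of Snord61 and the ACA of Snora78 in capitals:
Snord61, chrX:54644626-54644698, minus strand: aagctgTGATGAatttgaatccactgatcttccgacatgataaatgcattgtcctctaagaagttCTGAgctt
Snora78, chr17:24856621-24856748, minus strand: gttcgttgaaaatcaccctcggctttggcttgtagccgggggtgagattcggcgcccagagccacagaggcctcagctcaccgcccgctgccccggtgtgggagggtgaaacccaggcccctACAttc
Snord61 lies within Rbmx, which had 8 and 10 counts, and Snora78 within Snhg9, which had 0 and 3 counts, on the strand opposite to Rps2 with 57 and 43 counts (0.967). Rbmx and Snhg9 were too low to be measured by the minimum of 20 counts. SNORA43 (8 and 32 counts, 5.13) and Snord89 (14 and 37 counts, 3.39) were the next higher, and SNORD70, Snord70 and SNORA32 were among the lower, at 0.296, 0.329 and 0.27.

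U5, a small nuclear RNA of the spliceosome counted over 10 annotated loci, had 101, 104, 42 and 274 counts and a ratio of 3.48 (from 2.76 to 4.42). It was the call among 9 U RNAs, of which U4 had 1.31 (from 1.06 to 1.62) and U4atac 0.841. Of 18 transcripts of 5S genes and polymerase III n-R5s210 was called higher (8 and 17 counts, 2.73). The shares called among all genes were 6.99% higher and 8.07% lower. Tug1, a nuclear long non-coding RNA (chromosome 11, 3539797 to 3548815, minus strand), had 45, 67, 34 and 151 counts and a ratio of 4.30 (from 3.07 to 6.14), with the 21 month pool alone high. In a list of host genes and nuclear non-coding RNAs chosen after the values had been seen, Tug1 and Dleu2 (8 and 19 counts, 3.05) were called higher among 7, and Malat1 and Neat1 had 1.20 and 0.995.

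Clock genes were measured in pools that average 6 times of day, so that a change of phase alone would not show. Of 23 genes 1 was called higher and 2 lower, against 6.99% and 8.07% of all genes. Clock, a partner in the dimer that drives the oscillator, had 29, 9, 16 and 5 counts and a ratio of 0.221 (from 0.0668 to 0.578), and Nfil3, a repressor of clock output, had 27, 15, 9 and 8 counts and a ratio of 0.380 (from 0.149 to 0.86), not called on the Gapdh scale. Pspc1 (chromosome 14, 57341278 to 57397153, minus strand) had 4, 14, 7 and 31 counts and a ratio of 9.94 (from 3.51 to 38.8). Its relatives of the same RNA-binding family, Sfpq and Nono, had 1.56 (from 0.722 to 3.41) and 2.24 (from 0.879 to 6.17). The period gene Per2 had 0.855 (from 0.376 to 1.88), Nr1d1 0.963 (from 0.786 to 1.18) and the output gene Dbp 0.63 (from 0.382 to 1.02). Of the immediate early genes 1 of 9 was higher, Klf2 (19 and 37 counts, 2.50), and 1 lower, Ier2 (33 and 7 counts, 0.272).

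The glucocorticoid receptor gene Nr3c1 had 20, 38, 33 and 40 counts and a ratio of 2.56 (from 1.46 to 4.63). Over all genes 6.99% were called higher and 8.07% lower. Of 19 glucocorticoid and fasting responders, 4 were higher (Nr3c1, Lcn2, Mt1 and Mt2) and 2 lower, Igfbp1 and Fkbp5. The latter, a feedback inhibitor of the receptor, had 37, 15, 12 and 7 counts and a ratio of 0.243 (from 0.0913 to 0.551), and the target gene Tat had 0.982 (from 0.879 to 1.10). The targets therefore did not share a direction. Among 32 nuclear receptors and hepatocyte factors, 3 were higher, among them Nr3c1 and Nr2f2 (28 and 51 counts, 2.34), and 2 were lower, Foxa2 (17 and 4 counts, 0.302) and Nr0b2. In the growth hormone and IGF axis 1 of 23 genes was higher and 4 lower, against 6.99% and 8.07% of all genes. Stat5b, which relays the growth hormone signal, had 18 and 35 counts (2.49, from 1.37 to 4.68), the receptor-bound kinase gene Jak2 had 20 and 4 counts (0.256), and Igfbp1, Cyp4a12a and Cyp4a12b were the other lower genes. Igf1 itself had 1436 and 1336 counts and a ratio of 1.19 (from 1.11 to 1.29).

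Iron genes were called higher in 3 of 27, against 6.99% of all genes, and lower in none, and all 3 calls rest on 5 to 7 counts at 3 months. Hfe, which senses iron at the hepatocyte surface, had 5, 19, 13 and 21 counts (5.39, from 1.98 to 18.3). The transferrin receptor gene Tfrc and Smad7, which represses hepcidin, each had 7 and 16 counts (2.93, from 1.14 to 8.43). Hepcidin itself (Hamp), the hormone that blocks iron uptake, was not called with 929 and 1149 counts and a ratio of 1.59 (from 1.45 to 1.73).

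The genes on which the study turns were mostly within 2-fold. Of its 16 candidates for normalisation, H3f3b and Nr3c1 were called, both higher, against 6.99% called higher and 8.07% called lower among all genes. The other candidates ran from 0.516 for S100a1 (184 and 74 counts, from 0.388 to 0.679) to 2.24 for Nono. The final 7 markers had no call and a median log2 ratio of -0.08. Among them Ttr (0.768, from 0.748 to 0.788), Atp5h (0.727, from 0.59 to 0.893) and Tspo (0.623, from 0.404 to 0.946) were below 1 by more than counting error, and Gsk3b and Sirt2 had 0.947 and 0.99. Aox3 had 0.711, Pqbp1 0.641, H3f3a 0.785, Rora 1.11, Tomm7 1.13 and Tprkb 1.21. Of the 4 genes that the study lists as affected by age, Slc2a2, the glucose transporter of hepatocytes, had 354 and 355 counts and a ratio of 1.29 (from 1.11 to 1.49), Csnk1d had 0.993 (from 0.558 to 1.75) and Sfpq was not called, while Csnk1e had 1 and 4 counts. The study reported Slc2a2, as Glut2, to decrease with age and Csnk1d, Csnk1e and Sfpq to increase. It used hybridization and real-time PCR, and an older group than 21 months. For Csnk1d and Sfpq the study also reported more protein in liver nuclei by Western blot. The ratio of Slc2a2 here thus went in the other direction. The study took part of its 16 candidates from a pilot sequencing experiment, which it then extended. The ratios of those candidates are no independent evidence of a direction. All 16 candidates were also assessed in the study by their variance in sequencing of the same 4 ages. In that assessment H3f3b, Nr3c1 (as Gr) and Nono did not pass. The absence of a call among the final 7 markers was therefore favoured by their selection. The 4 age-affected genes were not chosen from sequencing, so their ratios here are a separate measurement, with 1 pool a side.

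Some of the leading genes stood outside every group. Dpy19l3, a mannosyltransferase gene, had 3, 24, 24 and 37 counts and a ratio of 15.8 (from 5.01 to 80.2), with the 3 month pool alone low. Tnks2, encoding a poly(ADP-ribose) polymerase that acts in Wnt signalling and at telomeres, had 9, 17, 10 and 41 counts (5.84, from 2.80 to 13.7). E230015J15Rik, a non-coding transcript on the strand opposite to the growth factor receptor gene Egfr, had 15, 46, 31 and 68 counts (5.81, from 3.29 to 10.95). Egfr had 870 and 629 counts and a ratio of 0.927 (from 0.835 to 1.03), and as the strand setting of the counts is not given, reads of both cannot be told apart with certainty.

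On the lower side Nek7 (chromosome 1, 140381291 to 140516273, minus strand), a kinase needed for the NLRP3 inflammasome, had 40, 20, 3 and 1 counts and a ratio of 0.0321 (from 0.000792 to 0.189), and each older pool was below the one before. Samhd1, which degrades nucleotides and limits viruses, had 41, 5, 6 and 3 counts (0.0938, from 0.0186 to 0.294), and Kdm6b, a demethylase for lysine 27 of histone H3, had 49, 13, 14 and 5 counts (0.131, from 0.0407 to 0.327). In both genes the 3 older pools were low. Adck2, Zfp281 and Lrp3 had 25, 24 and 22 counts at 3 months and 0 at 21 months, and were at least 6.50-fold, 6.24-fold and 5.72-fold lower (upper limits of the ratio 0.204, 0.213 and 0.234). The remaining leaders were Wipf2 (26 and 1 counts, 0.0493, from 0.0012 to 0.30), Smndc1 (30 and 2 counts, 0.0855, from 0.0099 to 0.337), Ghdc and Ict1 (each 36 and 3 counts, 0.107, from 0.0211 to 0.338) and Ttc9c (60 and 7 counts, 0.15).

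**Figure D3:**
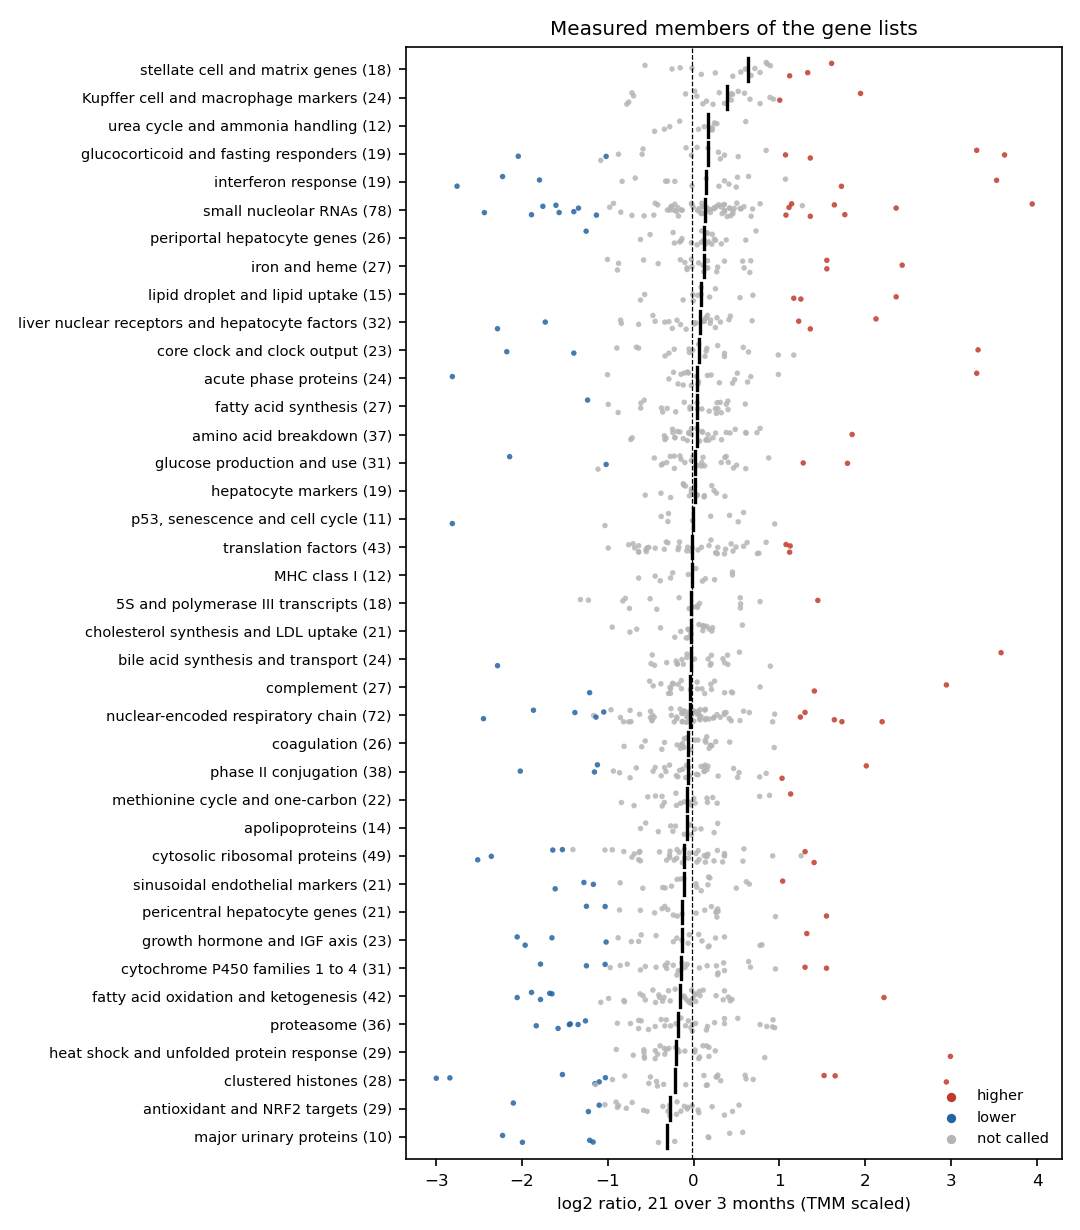
Log2 ratio of the 21 over the 3 month pool, scaled by TMM, for the measured members of each gene list with at least 10 of them (without the study's own lists and lists chosen after seeing the values), with the number of members in brackets; red points were called higher, blue lower and grey not called. The thick bar is the median of the list and the dashed line the median of all 5304 genes (-0.02); the medians shown run from 0.64 for stellate cell and matrix genes to -0.32 for the major urinary proteins.

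The 9 and 15 month pools took no part in the calls. The 371 higher genes had median levels of 11.5, 18.7, 21.9 and 32.2 cpm at 3, 9, 15 and 21 months, and the 428 lower genes 30.4, 19.8, 20.1 and 9.40 cpm, where the values at 3 and 21 months follow from the choice of genes. In 101 of the higher genes (27.2%) and 116 of the lower genes (27.1%) every step of age went in the direction of the call. The 21 month pool was beyond all 3 others in 276 and 306 genes, as for Cyp3a11 and Tug1. Both patterns are favoured by the choice of genes by their 3 and 21 month values. No reference share was computed, so these counts do not bear on a steady course with age. The 15 over 9 month ratio, which shares no library with the calls, had a median log2 value of 0.14 over the 280 higher genes with at least 20 counts at these ages, -0.07 over 302 lower genes and -0.07 over 3843 genes that were not called. It was above 1 for 55.0% of the higher, 45.7% of the lower and 45.4% of the uncalled genes. The lower genes thus had the same median as uncalled genes, and the higher genes a slightly larger one.

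The share of genes called lay between 12.7% and 15.1% for every pair of pools, and the pairs with the 3 month pool had the larger shares. It was 14.1% for 9 against 3 months, 15.1% for 15 against 3 months, 15.1% for 21 against 3 months, 12.8% for 15 against 9 months, 12.7% for 21 against 9 months and 13.2% for 21 against 15 months. These pairs share pools, are not independent and differ in the depth of their libraries, which affects how many genes can be called. The most distant ages therefore had no larger share of calls than 15 against 3 months, and no pair of pools of the same age exists that would give the share without a difference in age. The ratios were nearly unrelated to the length of the annotated transcript (Spearman's rho 0.07 across 5088 genes, which are not independent) and to the GC content of its first 100 bases (rho -0.02). The median log2 ratio was 0.08 in the 1272 genes with the longest transcripts and -0.07 in the 1272 with the shortest.

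**Figure D4:**
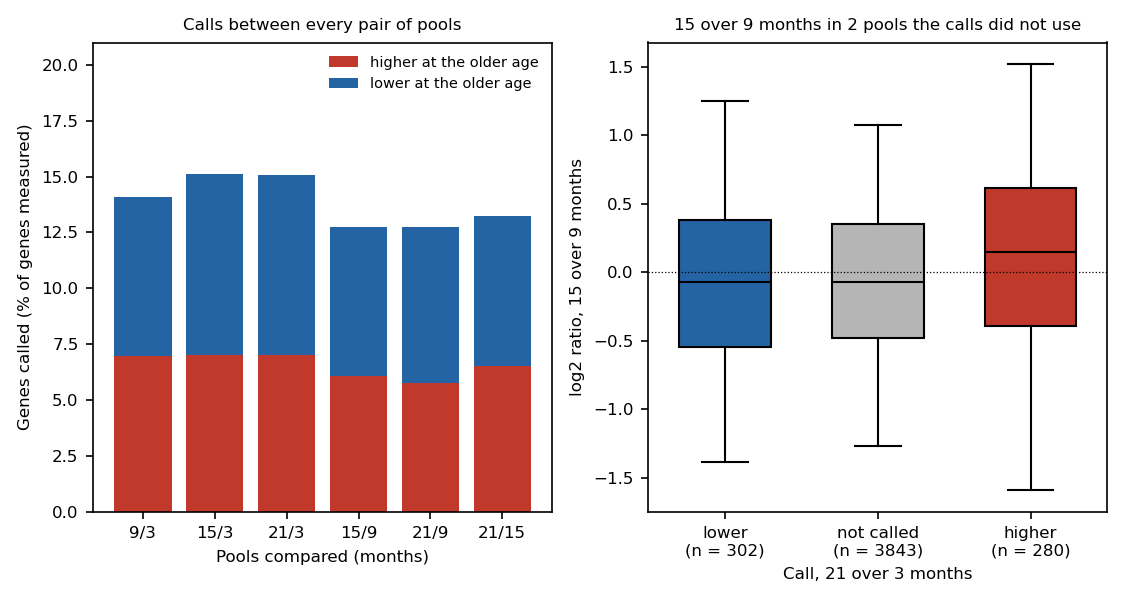
Left, share of measured genes called between every pair of pools, in percent, with genes higher (red) and lower (blue) at the older age. Right, log2 ratio of the 15 over the 9 month pool for the genes called lower, not called or called higher at 21 months (box from the 25% to the 75% point, line at the median, whiskers from the 5% to the 95% point); the shares lie between 12.7% and 15.1% and the medians at -0.07, -0.07 and 0.14.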

How the data were processed

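Total liver RNA was enriched for capped 5'-ends, and 4 bar-coded libraries were sequenced on 1 lane of a SOLiD 5500xl as reads of 35 bases, and the authors used the CLC Genomic workbench and the mm9 assembly for mapping. The authors deposited raw counts per gene symbol without normalisation. HTSeq is named in the submitters' processing notes, and its version and strand setting are not given in the sources used here. Rows for unassigned records, including reads without a unique alignment, stayed out of library sizes and ratios. They took between 91.6% and 93.3% of the records. Reads that fit several copies of a gene are therefore missing.

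Ratios and exact intervals were computed on counts scaled by TMM (edgeR 4.0.16, R 4.3.3; DESeq2 1.42.0 for an alternative; Python 3.11.15, scipy 1.17.1), for genes with at least 20 summed counts. With 1 pool a side no test was possible. The procedure was run on simulated counts with counting error alone and known library totals, so that variation between pools was not covered. A fold is bounded at 3 counts where a pool had 0. Positions come from GENCODE M1 on NCBIM37, which holds 33923 of the 33924 symbols.

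The genes named were the 15 called genes in each direction whose interval lay farthest from 1, up to 4 called members of each list (or the 2 most counted where none was called), the study's candidate and age-affected genes and the 10 most counted genes. Other genes were named after their values had been seen. Members and lists were chosen with earlier results of these data known. The lists of exocrine pancreas genes, of mitochondrial genome genes and of host genes and nuclear non-coding RNAs were added after the values had been seen. Single members of some lists are not reported here.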

Additional observations from a re-analysis of the deposited data

How the results depend on the processing

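No paired analysis was possible because each age had 1 pool, and for the same reason no pool could be left out. The counts of 371 higher and 428 lower genes moved most with the rule for a call, followed by the minimum and the scale. With the scale set by Gapdh they were 707 and 205. A minimum of 10 summed counts gave 608 higher genes, a minimum of 50 gave 104 higher and 136 lower genes, and no minimum gave 838 and 666. When the whole interval had to lie beyond 2-fold, 44 and 52 genes were called. For genes with a single annotated locus and no overlapping gene, an alternative chosen after seeing the data, the counts were 219 and 250, since fewer genes were tested. DESeq2 size factors, library totals, TMM over all 4 libraries, the 7 final markers as the scale, a 1.5-fold limit, 2-fold without the interval and protein-coding genes alone kept both counts within 1.5 times. The number of called list members was 127, and 127 to 135 over the other scales. Of the 115 called genes named by the rule, 15 lost the call on the Gapdh scale, 1 with DESeq2 size factors (Timd4) and 1 with the 7 markers (Igfbp1), and none was called in the opposite direction. How far 2 pools of equal age differ is unknown, and for genes with 20 to 49 summed counts the upper interval bound was a median of 5.35 times the lower bound.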
